A study of Rattus norvegicus with 18 samples.

Results

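Neonatal rat heart muscle cells kept for 48 h in unconditioned medium were compared with the same kind of cells at time zero. The members were the samples whose source label names cardiomyocytes at 48 hours in unconditioned medium (3 samples) and the time zero controls (6 samples), 9 of the 18 samples of the series. Of these, 2 against 4 were measured on the larger of 2 array designs, which carried every test, and 1 against 2 on the smaller design, which served for direction. All 9953 tested genes of the larger design with a probe assigned to a single gene were considered, out of 12198 such genes on it.

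The cells came from ventricles of rats at day 1 after birth (n = 24), were purified on Percoll gradients and spent 24 h in cardiac medium, at which point the time zero samples were extracted. For the other group that medium was diluted to 50% with hESC medium (a medium for human embryonic stem cells) that no stem cells had conditioned, with fetal bovine serum at 5% and horse serum at 10%, and RNA was taken 48 h later. Purification and the first 24 h of plating are the same for both. A pair of further groups in the larger design, each with 2 arrays, serves beside them: the same unconditioned mixture at 24 h, and the mixture at 48 h with hESC medium that stem cells had conditioned, at the same dilution and serum. No dish kept in undiluted cardiac medium to 48 h was analysed here, so time in culture and the change of medium cannot be told apart. Whether the replicates came from separate cultures is not stated, so p-values measure only array-to-array spread, part of which may be technical.

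Cardiomyocytes leave the cell cycle around birth, when many of them copy their DNA and divide their nuclei without splitting into daughter cells. Passage through mitosis depends on a set of kinases, kinesin motors and chromosome-binding proteins that are transcribed late in the cycle, and cyclin-dependent kinase inhibitors hold cells in G1. A ventricle also contains fibroblasts, endothelial cells, smooth muscle cells, pericytes and leukocytes, and a Percoll gradient enriches for myocytes without removing every other cell.

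Values are median-scaled intensities in arbitrary units. Time zero values are listed for replicates 3, 4, 5 and 6 and unconditioned 48 h values for replicates 2 and 3, which are numbers in order of deposit. Changes are on the log2 scale, 48 h minus time zero, ± SE, and a gene is said to have risen or fallen where limma's Benjamini-Hochberg adjusted p over all probes was under 0.05. The median change over all probes was 0.01. In 3 arrays (unconditioned 48 h replicate 2 and the time zero replicates 4 and 5) the upper quartile of intensity was 22.4 to 25.7 times the lower, against 38.7 to 47.8 times on the other 9 arrays of the larger design, and the first principal component (35.1% of the variance) set these 3 apart. Each compared group thus has equal numbers of arrays of either kind, and differences were also taken within each kind. Cardiomyocyte markers were present in both groups: the summed intensity of 8 of them, among them Myl2, Tnnt2 and Nppa, ran from 114020 to 235970 at time zero and from 148290 to 193980 at 48 h.

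Of 9953 genes, 345 changed (3.47%), 278 upward (2.79%) and 67 downward (0.673%). On the probe level 686 of 23694 probes changed, 480 higher and 206 lower (2.9%), and 70.0% of the calls were increases. That split depended on the scaling: 52.2% of the calls were increases with quantile normalization, 50.7% with cyclic loess and 53.8% with scaling to the 75th percentile. Over all tested genes 72.9% had the same sign in the arrays that stand apart (1 against 2) and in the other arrays (1 against 2). All 345 called genes did, which their choice on these same arrays nearly fixes. In 277 of the 278 genes that rose, and all 67 that fell, the arrays of the groups did not overlap, so that below a gene said to have risen or fallen has separate groups, with the exception of Aldh1a2. Over all tested genes 9.49% lay higher without overlap and 4.88% lower. On the smaller design 140 of 142 increases and 31 of 31 decreases had the same sign, against 75.1% of all 4613 genes compared there. Called genes were chosen for clear changes on the larger design, which by itself can raise their share of equal signs above that of all genes. Whether arrays of the 2 designs share RNA is not stated. The number of called probes was 331 without unconditioned 48 h replicate 3 and 1248 without time zero replicate 4.

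Of 104 called genes followed singly through the alternatives, none lost its call with quantile normalization, cyclic loess or scaling to the 75th percentile. Calls ended for 52 with no filter on level, among them Igfbp5 (adjusted p = 0.056), Il33 (0.093) and Rrm2 (0.078). They ended for 30 with no intensity trend, 40 with array weights and 60 with only the compared arrays in the fit, the last including Ccnb1 (0.050). Averaging the probes of a gene ended 11 of 90, which are given beside those genes.

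**Figure D1:**
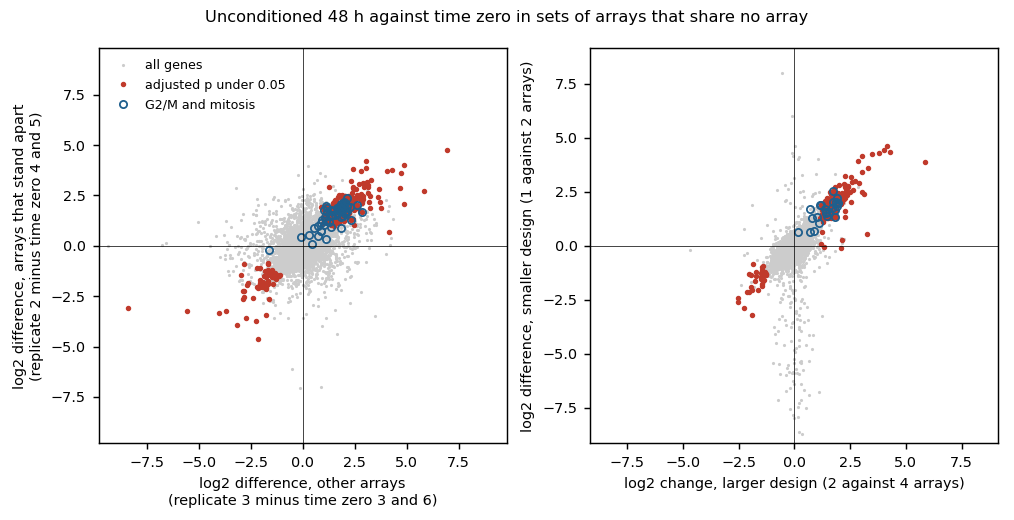
Left, log2 difference of each gene (unconditioned 48 h minus time zero) in the other arrays (horizontal) against that in the arrays that stand apart (vertical). Right, log2 change on the larger design against the difference on the smaller one. Grey points are all genes, red points genes with an adjusted p under 0.05 and blue circles genes of G2/M and mitosis. On the left 72.9% of all genes lie in the quadrants of equal sign, the red ones having been called from these same arrays, and a column of grey genes on the right falls far below 0 on the smaller design alone.

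Most measured genes of G2/M and mitosis rose. Of 54 members 36 rose and none fell, where 2.79% of all genes rose and 0.673% fell, with a list median of 1.60, a 3.03-fold higher level, beside a median of 0.04 over all genes tested. In 47 of the 54 both 48 h arrays lay above all 4 time zero arrays, as in 9.49% of all genes. The list median was 1.66 in the arrays that stand apart and 1.64 in the others, and all 23 members measured on the smaller design were higher there (median 1.68). Summed markers of fibroblasts and endothelial cells were higher at 48 h as well, as given below, and their part in the mitosis genes was not tested.

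Kif20a, a kinesin of the spindle midzone needed for the final separation of daughter cells, gave 421, 213, 240.0 and 381 at time zero and 1156 and 1772 at 48 h. Both 48 h arrays were above every time zero array, and the gene rose by 2.25 ± 0.33 (adjusted p = 9.4e-04). Kif23, the partner kinesin of the central spindle, went from 790.4, 479.7, 678 and 865 to 2154 and 3971, an increase of 2.09 ± 0.33 (adjusted p = 0.0017), again without overlap. Knstrn, a spindle and kinetochore protein that helps sister chromatids to separate, gave 103, 63.7, 67.3 and 66.4 at time zero and 296 and 331 at 48 h. Its change was 2.09 ± 0.35 (adjusted p = 0.0026). Securin, Pttg1, which holds the chromatid-cutting enzyme separase inactive until anaphase, gave 501, 306, 299.6 and 618 and then 1300.3 and 2247, a rise of 2.06 ± 0.34 (adjusted p = 0.0026).

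Cyclin B1, its kinase and a proliferation marker also rose. Ccnb1, the cyclin of mitotic entry, stood at 709, 333, 613 and 735 at time zero and at 1749.8 and 2778 at 48 h, and rose by 1.95 ± 0.34 (adjusted p = 0.0037). Its kinase partner Cdk1 went from 2489, 1296, 1102 and 3187 to 4544 and 9491 and rose by 1.84 ± 0.42 (adjusted p = 0.021). Mki67, a chromosome surface protein used as a proliferation marker, gave 649, 276, 519.6 and 555 and then 1209 and 1351, a rise of 1.42 ± 0.33 (adjusted p = 0.024). None of these 3 genes had overlapping groups. Called changes ran from 1.15 (Smc2, a condensin subunit) to 2.33 (Ube2c, the ubiquitin-conjugating enzyme of the anaphase-promoting complex), the extremes being named after their values were seen. The Smc2 value comes from its brightest probe, and another probe had the opposite sign (0.57, adjusted p = 0.44, with probes averaged). Other members that rose, also named after their values were seen, include the kinases Plk1 (1.64), Aurka (1.61), Aurkb (1.22) and Bub1 (2.05). Only Ect2 lay below 0, at -0.92 ± 0.86 (adjusted p = 0.76).

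How many members passed depended on unconditioned 48 h replicate 3: without it 3 of the 54 passed, and Pttg1 (1.66, adjusted p = 0.061), Ccnb1 (1.62, 0.072), Mki67 (1.34, 0.14) and Cdk1 (1.31, 0.23) did not. Mki67 also missed the threshold without replicate 2 (adjusted p = 0.080), and Cdk1 without time zero replicate 5 (1.59, 0.062). Without unconditioned 48 h replicate 3 the adjusted p was 0.064 for Ube2c, 0.14 for Plk1, 0.16 for Aurka, 0.17 for Bub1, 0.20 for Smc2 and 0.21 for Aurkb. Smc2 also lost its call without the other unconditioned 48 h array (0.15) or any of the time zero replicates 3, 5 and 6 (0.056 to 0.074), and Aurkb without that array (0.087) or the time zero replicates 3 (0.061) or 5 (0.086).

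Other settings also moved the count, and each is read against the share of all genes that rose under it. It was 39 without the 3 arrays that stand apart (5.37% of all genes), 41 without time zero replicate 4 (3.75%), and the 3 without unconditioned 48 h replicate 3 compare with 0.864%. With no filter on level 15 passed (1.39%), with no intensity trend 19 (1.9%), with array weights 18 (1.42%) and with only the arrays compared in the fit 7 (0.824%). With both designs in 1 fit 19 of the 23 members on both passed (6.98%).

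The 4 members with the smallest p are shown here by the RefSeq sequence upstream of their start site, because mitosis genes are known for 2 short elements there, the CCAAT box and the cell cycle homology region (CHR). Each line gives the 150 bases before the annotated start, in the gene's own direction (build GRCr8). Capitals mark the CCAAT box, as CCAAT or its complement ATTGG, and the CHR, as TTTGAA or TTCGAA or the complement TTCAAA. Kif20a lies on the plus strand (chr18:26504272-26504421), Kif23 on the minus strand (chr8:71320585-71320734), Knstrn on the plus strand (chr3:126254546-126254695) and Pttg1 on the minus strand (chr10:28406327-28406476).
Kif20a: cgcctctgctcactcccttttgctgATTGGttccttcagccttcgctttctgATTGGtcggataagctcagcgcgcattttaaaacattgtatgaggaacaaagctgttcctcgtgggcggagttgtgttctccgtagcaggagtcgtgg
Kif23: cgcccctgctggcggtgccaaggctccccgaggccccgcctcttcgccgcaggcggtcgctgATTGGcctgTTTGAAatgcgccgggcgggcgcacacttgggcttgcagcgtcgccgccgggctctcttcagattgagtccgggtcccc
Knstrn: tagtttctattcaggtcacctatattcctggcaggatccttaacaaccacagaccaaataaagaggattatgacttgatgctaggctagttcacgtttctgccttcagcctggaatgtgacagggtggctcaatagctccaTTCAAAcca
Pttg1: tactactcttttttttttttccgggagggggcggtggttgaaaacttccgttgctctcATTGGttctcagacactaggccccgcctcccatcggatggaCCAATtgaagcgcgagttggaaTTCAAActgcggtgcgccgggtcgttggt
The stretch of Kif20a holds 2 CCAAT boxes and no CHR of these letters, that of Kif23 holds 1 of each, that of Knstrn 1 CHR, and that of Pttg1 2 CCAAT boxes and 1 CHR. Over the 250 bases before the start, on both strands, 35 of the 46 mitosis genes with a promoter in the table held a CCAAT box (76.1%), compared with 34.3% of all 27457 promoters. A CHR was present in 27 of 46 (58.7%), compared with 17.3% of all promoters and 11.8% of the 8292 promoters of tested genes, and both elements in 25 of 46 (54.3%), compared with 6.22%. Among 33 genes of DNA replication with a promoter, 5 held a CHR (15.2%) and 17 a CCAAT box (51.5%). These counts describe letters in a window and do not show binding.

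Of 37 measured genes of DNA replication and G1/S 3 rose, where 2.79% of all genes did, and none fell. The list median was 0.47. Uhrf1, which helps copy DNA methylation onto new strands, went from 159, 102, 70.4 and 97.5 to 370.5 and 422, a rise of 1.95 ± 0.33 (adjusted p = 0.0027). Rrm2, a subunit of the reductase that makes deoxynucleotides, gave 122, 53.9, 158 and 154 and then 345 and 863 (2.28 ± 0.44, adjusted p = 0.0069). Mcm5, part of the replicative helicase, gave 252, 211, 157 and 185 and then 492 and 773 (1.63 ± 0.33, adjusted p = 0.010). All 3 had 48 h arrays above every time zero array, but without unconditioned 48 h replicate 3 Rrm2 (1.62, adjusted p = 0.14) and Mcm5 (1.31, 0.14) did not pass, nor did Mcm5 with its probes averaged (1.09, 0.058). The mean of the list over its genes, relative to time zero, was 0.32 and 0.83 in the 48 h arrays and ran from -0.27 to 0.26 at time zero. The same mean for mitosis genes was 1.17 and 1.75 at 48 h and ran from -0.41 to 0.35 at time zero.

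None of 13 measured G1 cyclins and kinases passed (median -0.09), where 3.47% of all genes changed. Ccnd1, cyclin D1, gave 2107, 1282, 1169 and 2572 at time zero and 2644 and 4471 at 48 h, a difference of 1.03 ± 0.36 (adjusted p = 0.17). Among 9 cell cycle inhibitors 2 rose and 1 fell, where 2.79% and 0.673% of all genes did. Cdkn2b, which encodes p15, an inhibitor of the cyclin D kinases, was near the floor of 4.78 at time zero, with 4.78, 5.33, 52.5 and 9.98, and reached 452 and 858 at 48 h. It rose by 5.86 ± 0.66 (adjusted p = 2.1e-04), the largest increase of all genes tested under median scaling, and by 4.66 where the floor was raised to 0.2 of the median. Cdkn2c, which encodes the related inhibitor p18, went from 1053, 569, 603 and 1134 to 1617 and 3254 and rose by 1.52 ± 0.37 (adjusted p = 0.030). It did not pass without unconditioned 48 h replicate 3 (1.01, adjusted p = 0.30) or time zero replicate 5 (1.38, 0.086). Cdkn1c, which encodes p57, gave 346, 256, 275 and 181 at time zero and 63.1 and 73.7 at 48 h, a fall with a log2 change of -1.92 ± 0.34 (adjusted p = 0.0038). The p21 gene Cdkn1a, named after its value was seen, stood between 13986 and 23518 at time zero and at 14238 and 17505 at 48 h (-0.20 ± 0.32, adjusted p = 0.89).

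**Figure D2:**
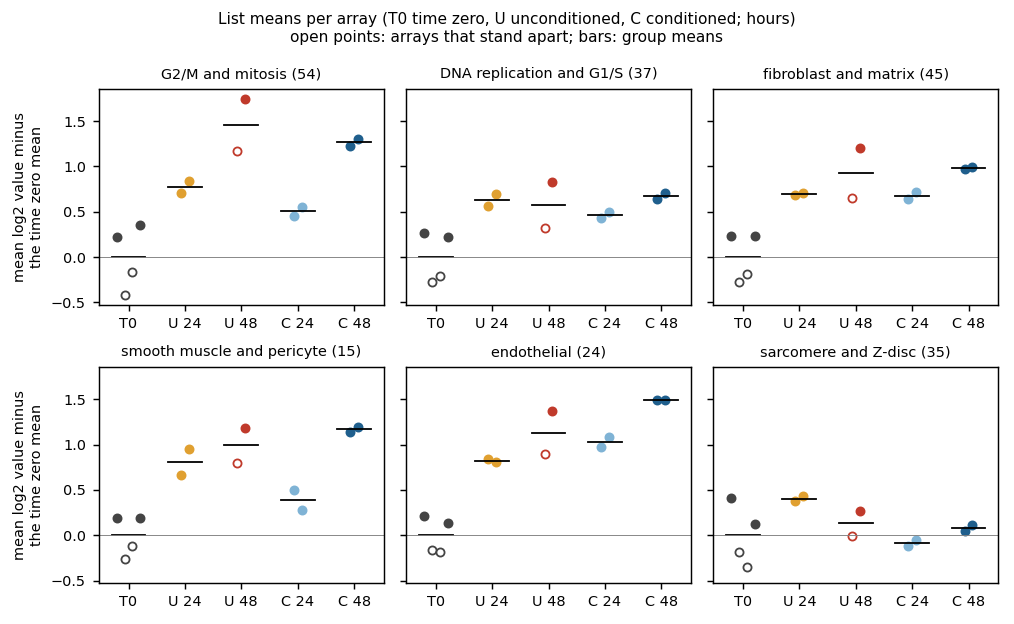
Mean log2 value of 6 gene lists in each array of the larger design, minus the mean of the 4 time zero arrays. Columns are time zero (T0) and 24 h and 48 h in unconditioned (U) and conditioned (C) medium, open points are the arrays that stand apart and bars are group means. For mitosis genes the 48 h unconditioned arrays lie at 1.17 and 1.75 and the time zero arrays between -0.41 and 0.35.

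Targets and ligands of the TGF-beta and BMP pathways moved in both directions. Of 29 measured genes 5 rose and 4 fell, where 2.79% and 0.673% of all genes did, with a median of 0.08. The genes that fell were the Id genes, which encode helix-loop-helix proteins that block DNA binding by other such factors and are direct targets of BMP signalling, and Atoh8, another helix-loop-helix factor. Id1 gave 3133, 1598, 1496 and 2637 at time zero and 328 and 396 at 48 h, with a change of -2.55 ± 0.34 (adjusted p = 5.8e-04). Id2 went from 725, 633, 445 and 346 to 55.7 and 10.6 (-4.41 ± 0.54, adjusted p = 3.1e-04). Id3, named after its values were seen like Atoh8, went from 5079.5, 2417, 2968 and 5232 to 773 and 1631 (-1.73 ± 0.37, adjusted p = 0.015). Atoh8 gave 219, 134, 195 and 259.5 and then 49.2 and 58.3 (-1.87 ± 0.42, adjusted p = 0.019). Without unconditioned 48 h replicate 2 neither Id3 (-1.19, adjusted p = 0.22) nor Atoh8 (-1.75, 0.11) passed, and Atoh8 did not without replicate 3 (0.080) or time zero replicate 3 (0.057). For these 4 genes each 48 h array was below all time zero arrays, and at 24 h in the same medium Id1 had already reached 246 and 410.5.

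The members that rose encode ligands and proteins of the Ltbp family. Inhba, the beta A subunit of activin and inhibin, went from 264, 253, 244 and 442 to 888 and 1687, a rise of 2.07 ± 0.33 (adjusted p = 0.0020). Ltbp1, which tethers latent TGF-beta in the matrix, gave 63.0, 13.0, 46.5 and 51.4 and then 180.4 and 301 (2.64 ± 0.49, adjusted p = 0.0052). When unconditioned 48 h replicate 3 was left out, neither passed (Inhba 1.61, adjusted p = 0.055, and Ltbp1 2.27, 0.085). The other increases were Tgfb3 (1.67), Ltbp2 (1.53) and the ligand Bmp7 (1.39), all named after their values were seen. Without unconditioned 48 h replicate 3 the adjusted p was 0.19 for Tgfb3, 0.27 for Ltbp2 and 0.13 for Bmp7. Ltbp2 also did not pass without time zero replicate 5 (0.057), nor Bmp7 without that array (0.11), without unconditioned 48 h replicate 2 (0.22) or without the 3 arrays that stand apart (0.88, adjusted p = 0.20).

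Of 12 measured genes of the insulin-like growth factor system 2 rose and 1 fell, where 2.79% and 0.673% of all genes did. All 3 encode binding proteins. Igfbp5 stood at 2302, 1358, 692 and 1099.5 at time zero and gave 112 and 4.78 at 48 h, the second of these at the floor. The change was -5.74 ± 0.87 (adjusted p = 0.0012), the largest decrease of all genes tested under median scaling. Its size rests on the floor, and was -3.11 between arrays that stand apart, -8.38 between the others and -4.74 at a floor raised to 0.2 of the median. Igfbp3 went from 57.6, 32.4, 39.0 and 60.3 to 168 and 286 and rose by 2.26 ± 0.37 (adjusted p = 0.0024). Igfbp7 went from 2243, 1327, 1708 and 2319.9 to 3757 and 5903 and rose by 1.35 ± 0.32 (adjusted p = 0.025). With unconditioned 48 h replicate 3 left out, the adjusted p was 0.062 for Igfbp3 and 0.23 for Igfbp7, and without time zero replicate 5 it was 0.060 for Igfbp7.

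Among the 12 genes with the largest increases, several encode enzymes and immune or vascular proteins. Aldh3a1, an aldehyde dehydrogenase, had the smallest adjusted p of all genes. It gave 124, 95.5, 193 and 109 at time zero and 1674 and 3048 at 48 h, a rise of 4.17 ± 0.34 (adjusted p = 1.1e-05). Atp12a, the catalytic subunit of a proton-potassium pump, went from 186, 107, 185 and 233 to 1866 and 3474 (3.89 ± 0.35, adjusted p = 2.1e-05). Ptgs1, the constitutive cyclooxygenase that starts prostaglandin synthesis, went from 248, 279, 189 and 264 to 1642 and 3217 (3.25 ± 0.32, adjusted p = 4.1e-05), but differed by only 0.55 on the smaller design.

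Il33, a cytokine of the interleukin-1 family kept in the nucleus, gave 18.6, 124, 42.7 and 4.78 and then 482 and 540.1 (4.28 ± 0.78, adjusted p = 0.0042). Its receptor Il1rl1, also called ST2, went from 1133, 626, 711 and 1361 to 1822 and 3352 (1.44 ± 0.36, adjusted p = 0.037). The receptor subunit Il17re gave 13.9, 15.7, 4.78 and 4.78 at time zero and 141 and 239 at 48 h (4.45 ± 0.52, adjusted p = 2.4e-04), and Fgl2, a membrane prothrombinase, gave 18.4, 22.1, 11.3 and 12.1 and then 214 and 293 (4.03 ± 0.38, adjusted p = 2.3e-05). Low time zero levels make these sizes uncertain: a floor at 0.2 of the median gave 3.77 for Il33, 3.26 for Il17re and 3.66 for Fgl2, and averaging the 2 probes of Fgl2 ended its call (2.23, adjusted p = 0.093). Il1rl1 did not pass without unconditioned 48 h replicate 3 (1.00, adjusted p = 0.31) or time zero replicate 5 (1.32, 0.10), or with its probes averaged (0.74, 0.25).

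The remaining increases in that group were Adtrp (3.78), Entpd1, which breaks down extracellular ATP (3.61), Rnase4, a secreted ribonuclease (3.44), the actin-binding LIM protein Pdlim4 (3.30), and Aoc3 (3.47), a vascular amine oxidase. Rnase4 and Aoc3 lost their calls when either unconditioned 48 h array was left out. Their adjusted p was then 0.13 and 0.071 without replicate 2, and 0.063 and 0.11 without replicate 3. Aoc3 also missed the threshold without time zero replicate 3 (adjusted p = 0.058) and with its probes averaged (2.08, 0.068).

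**Figure D3:**
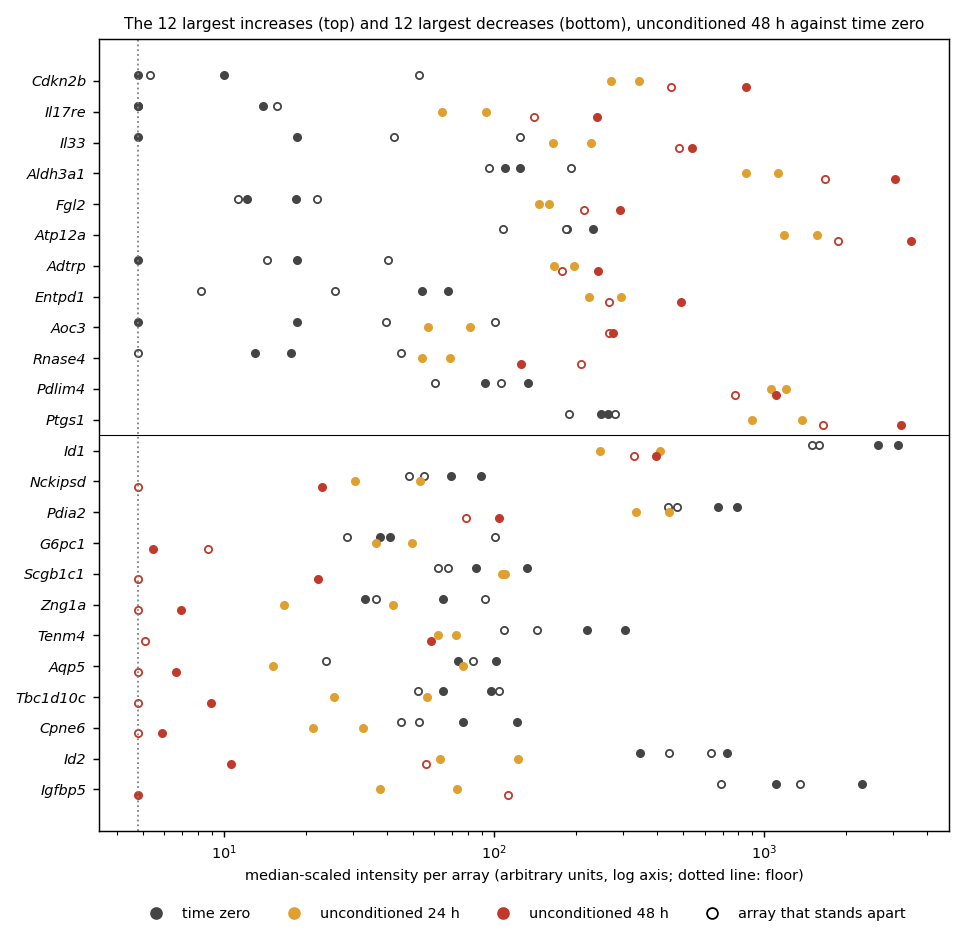
Median-scaled intensity on a log axis in each array for the 12 genes with the largest increases (top) and the 12 with the largest decreases (bottom). Grey points are time zero, orange points unconditioned 24 h and red points unconditioned 48 h, open points are arrays that stand apart and the dotted line is the floor of 4.78. In each gene shown both red points lie on one side of all 4 grey points, which the choice of these genes required.

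Most of the 12 largest decreases were in dim genes. Pdia2, a protein disulfide isomerase, went from 795, 473, 439.8 and 672 to 78.8 and 104, a fall with a change of -2.68 ± 0.32 (adjusted p = 2.4e-04). Tenm4, a teneurin of the cell surface, gave 304, 144, 109 and 220.2 and then 5.10 and 58.2 (-3.38 ± 0.71, adjusted p = 0.012), and did not pass without unconditioned 48 h replicate 2 (-1.63, adjusted p = 0.21) or time zero replicate 3 (-3.13, 0.055). In Cpne6 (-3.69), Tbc1d10c (-3.55), Aqp5 (-3.46), Zng1a (-3.17), G6pc1 (-2.74) and Nckipsd (-2.60), at least 1 of the 48 h arrays was at or within 1 log2 unit of the floor. None of these 6 passed at a floor of 0.2 of the median, where their changes ran from -2.00 to -1.27. Leaving out single arrays also ended their calls (adjusted p up to 0.34, for Nckipsd without unconditioned 48 h replicate 2). Scgb1c1 (-3.01) passed with that floor (-2.01) and not without unconditioned 48 h replicate 2 (-1.90, adjusted p = 0.11).

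Some matrix genes and endothelial and smooth muscle markers rose. Of 45 fibroblast and matrix genes 11 rose and none fell, where 2.79% of all genes rose, with a median of 0.77. Lox, which cross-links collagen and elastin, went from 260.1, 175, 173 and 319 to 1223 and 1708, a rise of 2.69 ± 0.32 (adjusted p = 2.4e-04). The proteoglycan versican, Vcan, gave 276, 169, 196 and 184 and then 885 and 1604 (2.56 ± 0.31, adjusted p = 2.9e-04), and Fbln2, fibulin 2, gave 460.3, 260.1, 290.4 and 487 and then 1677 and 2425 (2.48 ± 0.33, adjusted p = 4.9e-04). Loxl2, a second lysyl oxidase, went from 58.7, 13.3, 40.3 and 32.1 to 329.8 and 233 (3.13 ± 0.46, adjusted p = 9.3e-04). All 4 lay without overlap. Col1a1, the major chain of type I collagen, went from 2112, 1347, 1849 and 2248 to 4062 and 7048 (1.53 ± 0.34, adjusted p = 0.017), and did not pass without unconditioned 48 h replicate 3 (1.13, adjusted p = 0.20). The summed intensity of the measured fibroblast markers ran from 7919 to 13622 at time zero and from 16731 to 22799 at 48 h. Its brightest member, Vim, ran from 4402 to 9245 and then from 10353 to 11763 (0.82 ± 0.32, adjusted p = 0.24). Of 6 tested markers 3 rose (Col1a1, Postn and Thy1). Postn (adjusted p = 0.23) and Thy1 (0.26) did not pass without unconditioned 48 h replicate 3, nor did Postn without replicate 2 (0.051) or either of them without time zero replicate 3 (0.056 for both). The fibroblast markers Lum and Pdgfra were at the floor in both 48 h arrays, and Dcn was at most 6.74 there. They were dim at time zero too, where Lum reached at most 16.7, Pdgfra 7.07 and Dcn 50.9. In a bulk sample more cells of a type and more RNA per cell cannot be told apart.

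Of 24 measured endothelial genes 11 rose and 1 fell, where 2.79% and 0.673% of all genes did, and the list median was 1.34. Tek, the angiopoietin receptor Tie2, went from 92.4, 45.2, 72.1 and 92.4 to 424 and 714, a rise of 2.92 ± 0.35 (adjusted p = 2.4e-04). Ramp2, a coreceptor for adrenomedullin, gave 191, 246, 160.4 and 208 and then 712 and 906 (2.01 ± 0.29, adjusted p = 8.5e-04). Thbd, the anticoagulant receptor thrombomodulin, went from 71.1, 82.6, 58.5 and 72.2 to 237 and 394 (2.11 ± 0.30, adjusted p = 8.1e-04), but the second of its 2 probes had the opposite sign and it stood at -0.08 on the smaller design and did not pass with both designs in 1 fit (1.38, adjusted p = 0.16). Kdr, the main receptor for VEGF, moved the other way: it gave 530.3, 510.2, 252 and 452 at time zero and 86.2 and 105 at 48 h (-2.14 ± 0.36, adjusted p = 0.0025). The sum of 6 endothelial markers was 950 to 1431 at time zero and 2079 to 3293 at 48 h. Of these 6, Pecam1 (1.65), Vwf (2.29), Tie1 (1.37) and Tek rose, Emcn stood at 1.31 ± 0.40 (adjusted p = 0.097) and Kdr fell. When unconditioned 48 h replicate 3 was left out, the adjusted p was 0.19 for Pecam1, 0.088 for Vwf and 0.27 for Tie1, and without time zero replicate 5 it was 0.073 for Tie1. Averaging the probes of a gene ended the calls of Kdr (-2.03, adjusted p = 0.050), Pecam1 (1.26, 0.15) and Tie1 (0.96, 0.48).

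Of 15 smooth muscle and pericyte genes 4 rose, where 2.79% of all genes did, with a median of 0.70. Cspg4, the pericyte proteoglycan NG2, went from 1182, 437, 695 and 1277 to 2467 and 5369.7 (2.15 ± 0.41, adjusted p = 0.0067). Myh11, smooth muscle myosin, gave 315, 224, 181 and 266 and then 647 and 809 (1.58 ± 0.31, adjusted p = 0.0069), and calponin, Cnn1, gave 1858, 1251, 1393 and 2094 and then 4046 and 4795 (1.45 ± 0.30, adjusted p = 0.011). The fourth was Aoc3. Without unconditioned 48 h replicate 3 the adjusted p was 0.13 for Cspg4, 0.088 for Myh11 and 0.11 for Cnn1. Acta2, smooth muscle actin, lay between 8824 and 19499 at time zero and at 17219 and 22047 at 48 h (0.62 ± 0.33, adjusted p = 0.46), with overlapping groups. The markers of this class summed to 17381 to 30822 at time zero and 30797 to 39425 at 48 h, so the ranges met.

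Of 16 measured leukocyte genes 1 rose, where 2.79% of all genes did. It was Cd14, a coreceptor for lipopolysaccharide, which went from 213, 130.4, 140.1 and 149 to 289 and 426 (1.18 ± 0.31, adjusted p = 0.045). It did not pass without time zero replicate 5 (adjusted p = 0.087) or 6 (0.064), or without unconditioned 48 h replicate 2 (0.056) or 3 (0.30). The list as a whole leaned the other way, with a median of -0.24, 6 genes higher and 10 lower. Without overlap 1 lay higher and 5 lower, where 9.49% and 4.88% of all genes did, but none of the decreases passed. The marker sums overlapped, from 1489 to 2130 at time zero and from 1632 to 2279 at 48 h. Lyz2 was at the floor on every array of the larger design. What part other cells had in the increases of matrix, endothelial, smooth muscle and mitosis genes was not tested.

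Of 35 sarcomere and Z-disc genes 2 rose and 1 fell, where 3.47% of all genes changed, and the list median was 0.01. Tnnt1, the slow skeletal troponin T, went from 184, 138, 152 and 246 to 1106 and 504, a rise of 2.09 ± 0.34 (adjusted p = 0.0022). Tpm2, beta tropomyosin, gave 4562, 2422, 2752 and 4011 and then 7104 and 9596 (1.31 ± 0.32, adjusted p = 0.029). Tcap, telethonin of the Z-disc, fell, from 5241, 3018, 2932 and 6153 to 1151 and 1999.7 (-1.44 ± 0.35, adjusted p = 0.033). Tpm2 lost its call when either unconditioned 48 h array was left out (adjusted p = 0.055 without replicate 2 and 0.21 without replicate 3) or time zero replicate 5 (0.072). Tcap did not pass without unconditioned 48 h replicate 2 (-1.04, adjusted p = 0.31), or time zero replicate 3 (0.085) or 6 (0.058). Ventricular contractile genes were bright in both groups: Myh7 lay between 15406 and 29052 at time zero and at 21252 and 35452 at 48 h (0.38 ± 0.36, adjusted p = 0.76), and Tnnt2 between 16076 and 32655 and then at 14850.0 and 21637 (-0.41 ± 0.35, adjusted p = 0.72). Acta1, skeletal actin, stood at 0.08 ± 0.34 (adjusted p = 0.96), a value whose sign changed with the scaling. No probe was assigned to Myh6 alone, and it is not reported.

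Of 11 measured myosins and muscle isoforms outside the ventricular set 4 rose and 2 fell, where 2.79% and 0.673% of all genes did. Myh2, a fast skeletal heavy chain, went from 555, 274, 402 and 801 to 1770.0 and 2910.5, a rise of 2.27 ± 0.39 (adjusted p = 0.0029). Myh3, the embryonic heavy chain, gave 1050.5, 498, 896 and 1288 and then 3032 and 4382 (2.05 ± 0.39, adjusted p = 0.0067). The fast light chains Myl1 (2.08) and Myl11 (2.76) rose as well, named after their values were seen. With unconditioned 48 h replicate 3 left out, neither passed (adjusted p = 0.19 and 0.22), and Myl11 did not without replicate 2 (0.22), time zero replicates 5 (0.078) or 6 (0.056), or the 3 arrays that stand apart (0.13). Myh7b, a slow-type heavy chain, fell, from 2082, 1226, 960.1 and 1607 to 285 and 539 (-1.85 ± 0.35, adjusted p = 0.0057), and so did Ckm, muscle creatine kinase, from 3168, 1864, 1901 and 2068 to 691 and 860.4 (-1.51 ± 0.30, adjusted p = 0.0091). Without unconditioned 48 h replicate 3 Myh2 (adjusted p = 0.062) and Myh3 (0.093) did not pass, and without replicate 2 Myh7b (0.10) and Ckm (0.088) did not.

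None of 25 calcium handling genes passed (median 0.05), none of 20 natriuretic peptides and stress markers (0.25) and none of 16 cardiac transcription factors (0.18). Over all genes 3.47% changed, a share that leaves few calls to expect in lists of these sizes. Nppa, which encodes atrial natriuretic peptide, lay between 17504 and 31975 at time zero and at 25727 and 28378 at 48 h (0.23 ± 0.32, adjusted p = 0.87). Its neighbour Nppb gave 0.40 ± 0.34 (adjusted p = 0.72). The calcium pump Atp2a2 stood at 0.02 ± 0.33 (adjusted p = 0.99) on its brightest probe but at -1.05 with its probes averaged and -2.49 on the smaller design, so its probes disagreed. Nkx2-5, a factor that specifies heart cells, gave 609, 619, 309 and 640.5 and then 253 and 308 (-0.90 ± 0.35, adjusted p = 0.23). Of 21 ion channel and gap junction genes 2 rose, where 2.79% of all genes did. Gja5, connexin 40, went from 293, 145, 204 and 277 to 654 and 1437 (2.13 ± 0.36, adjusted p = 0.0025). Kcne1, a potassium channel subunit, went from 603, 341, 447 and 707 to 1041 and 1744 (1.42 ± 0.33, adjusted p = 0.025). Gja5 differed by 0.26 on the smaller design and did not pass with its probes averaged (0.82, adjusted p = 0.11). Neither passed without unconditioned 48 h replicate 3 (adjusted p = 0.068 for Gja5 and 0.24 for Kcne1), and Kcne1 did not without time zero replicate 5 (0.064).

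**Figure D4:**
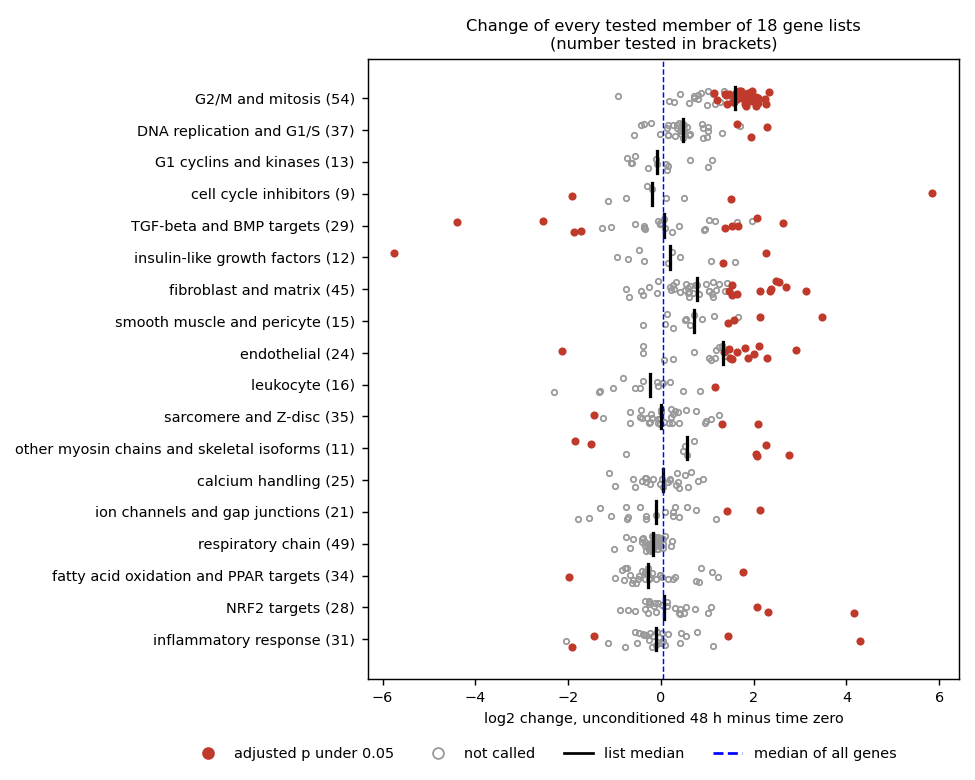
Log2 change of every tested member of 18 gene lists (horizontal axis, unconditioned 48 h minus time zero). Red points have an adjusted p under 0.05, grey circles do not, black bars are list medians and the dashed blue line is the median of all genes, 0.04. The mitosis list stands at a median of 1.60 and the endothelial list at 1.34, while the sarcomere list stands at 0.01.

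None of 49 respiratory chain genes passed, where 3.47% of all genes changed. Of the 49, 43 were below 0 (median -0.17), as were 4659 of all 9953 genes. The median was -0.08 in the arrays that stand apart, with 19 genes above 0, and -0.31 in the others, with 4 above 0. Time zero arrays ranged from -0.32 to 0.44 in the mean of the list. Of 34 genes of fatty acid oxidation and PPAR targets 1 rose and 1 fell, where 2.79% and 0.673% of all genes did (median -0.28). Esrra, a nuclear receptor that drives mitochondrial genes, went from 409, 256, 368 and 596 to 73.6 and 130.3 (-1.99 ± 0.35, adjusted p = 0.0035), and Acot1, an acyl-CoA thioesterase, from 354, 232, 149 and 279.8 to 708 and 969 (1.77 ± 0.33, adjusted p = 0.0059). Esrra did not pass without unconditioned 48 h replicate 2 (-1.58, adjusted p = 0.060), nor Acot1 without replicate 3 (1.55, 0.084).

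In glycolysis 1 of 24 fell, where 0.673% of all genes did: Pfkfb2, which sets the level of the activator fructose 2,6-bisphosphate. It went from 300.2, 215, 232 and 383 to 72.9 and 135 (-1.47 ± 0.34, adjusted p = 0.023) and did not pass without unconditioned 48 h replicate 2 (-1.03, adjusted p = 0.27) or time zero replicate 3 (0.060), or with its probes averaged (-1.06, 0.12). Of 20 hypoxia targets 1 fell, Ankrd37 (-1.85), whose call ended when any one of 4 arrays was left out (unconditioned 48 h replicate 3 or the time zero replicates 3, 5 or 6, with an adjusted p from 0.082 to 0.34). Of 30 genes of cholesterol synthesis and SREBP targets 1 rose, where 2.79% of all genes did, and the list median was 0.45. It was the fatty acid desaturase Scd2, which went from 672, 394, 463 and 721 to 2086 and 3218 (2.25 ± 0.33, adjusted p = 9.1e-04).

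Of 28 targets of NRF2, the factor that answers oxidative and electrophilic stress, 3 rose, where 2.79% of all genes did (median 0.07). Beside Aldh3a1 these were Akr1b8, an aldo-keto reductase, from 338, 177, 274 and 338 to 970.0 and 1344 (2.06 ± 0.31, adjusted p = 0.0012), and the glutathione transferase Gsta2, from 562, 267, 373 and 537 to 1413 and 3016 (2.31 ± 0.36, adjusted p = 0.0017). Nqo1, a quinone reductase often used as a readout of this factor, stood at 1.02 ± 0.30 (adjusted p = 0.087). Of 32 immediate early and ERK response genes 1 rose, Etv4, a transcription factor of the ETS family, from 613, 259, 429 and 763 to 1164 and 2305 (1.78 ± 0.40, adjusted p = 0.018), and the list median was 0.50. Etv4 did not pass without unconditioned 48 h replicate 3 (1.29, adjusted p = 0.21) or time zero replicate 5 (1.73, 0.054). Egr1 stood at 1.36 ± 0.37 (adjusted p = 0.058).

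Where 3.47% of all genes changed, 4 of 31 inflammatory genes did: Il33 and Il1rl1 rose, while the chemokine Ccl20 (-1.45) and the secreted lectin Reg3b (-1.91) fell (list median -0.10). Ccl20 lost its call when either unconditioned 48 h array was left out (adjusted p = 0.098 and 0.13) or time zero replicate 3 (0.056) or 5 (0.065), and Reg3b did not without unconditioned 48 h replicate 2 (0.20). Of 15 YAP targets 1 rose, survivin, Birc5 (1.65), which the mitosis list also holds and which did not pass without unconditioned 48 h replicate 3 (1.23, adjusted p = 0.19). Of 13 Wnt targets Ccn4 (1.64) rose, but not without the same array (1.35, adjusted p = 0.14). None of 32 genes of the amino acid and ER stress response, 23 of the interferon response, 15 p53 targets, 10 Notch targets or 4 erythroid genes passed. The medians of these lists were -0.15, -0.09, -0.20, 0.03 and 0.01, and 3.47% of all genes changed. Among 6 epicardial, Schwann cell and neuronal genes Aldh1a2, which makes retinoic acid, rose from 86.3, 56.8, 180.4 and 78.8 to 161 and 1485 (2.42 ± 0.61, adjusted p = 0.037). Its groups overlapped, the only such gene among the 278 increases. The call rests on unconditioned 48 h replicate 3, without which it stood at 0.82 (adjusted p = 0.51), and it also ended without time zero replicate 3 (0.099) or 6 (0.056).

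The 48 h arrays were next set against the 2 arrays of the same medium at 24 h. Unconditioned 48 h replicate 2 stands apart and neither 24 h array does. The kind of array is thus not balanced here and cannot be fully told apart from time. Differences are relative to the median over all probes, which was -0.18. limma called none of 23694 probes (0%), with 1234 at an unadjusted p under 0.05. On the gene level 507 of 9953 (5.09%) had an unadjusted p under 0.05. Without single arrays between 10 and 28 probes passed, the highest count being that without unconditioned 24 h replicate 2. Of 54 mitosis genes 52 lay above the median change, as did 4617 of all 9953 genes. The list median was 0.91, with 15 members at an unadjusted p under 0.05. None passed after adjustment. Kif20a gave 603 and 564 at 24 h and lay 1.47 ± 0.38 higher at 48 h (unadjusted p = 0.0033, adjusted p = 0.94). Set beside this, the mitosis list stood at a median of 0.63 between 24 h and time zero, while DNA replication genes stood at 0.43 there and at 0.14 from 24 h to 48 h. From time zero to 24 h the kind of array is not balanced either. Time zero replicates 4 and 5 stand apart and neither 24 h array does. In those replicates the mean over DNA replication genes relative to time zero was -0.27 and -0.21. In replicates 3 and 6 it was 0.26 and 0.22. For mitosis genes it was -0.41 and -0.17, and 0.23 and 0.35. The size of either step cannot be fully told apart from the kind of array.

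The smallest p among increases from 24 h to 48 h belonged to Myh3, Tmigd1, a cell adhesion protein, and Ccn5, a secreted matricellular protein. Myh3 gave 632 and 902 at 24 h and lay 2.45 ± 0.45 higher at 48 h (adjusted p = 0.49). Tmigd1 gave 42.9 and 23.3 and lay 2.51 ± 0.58 higher (adjusted p = 0.94), but its time zero arrays gave 72.3, 149, 117 and 107 and its 48 h arrays 275 and 92.1. Ccn5 lay 2.31 ± 0.55 higher (adjusted p = 0.94). Among decreases it belonged to Pdia2, Scgb1c1 and Apoe, the lipid carrier apolipoprotein E. Apoe gave 2101, 1345, 1034 and 1408 at time zero, 1024 and 1304 at 24 h and 284 and 413 at 48 h, a difference of -1.57 ± 0.37 from 24 h (adjusted p = 0.56) and a change of -2.06 ± 0.32 (adjusted p = 0.0014) from time zero. Pdia2 likewise stood at 335 and 443 at 24 h and differed by -1.91 ± 0.37 from there (adjusted p = 0.49). The difference for Scgb1c1 was -3.21 ± 0.68 (adjusted p = 0.49).

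The last comparison set medium conditioned by stem cells against the unconditioned medium at 48 h, 2 arrays against 2, relative to a median difference of 0.18. These values share the unconditioned 48 h arrays with those above. Replicate 2 of them stands apart and neither conditioned 48 h array does. The kind of array is thus not balanced here and cannot be fully told apart from medium. Of 23694 probes 35 passed (0.148%), and of 9953 genes 16 (0.161%). Without single arrays the number ran from 11 (without conditioned 48 h replicate 3) to 97 (without unconditioned 48 h replicate 3). Of the genes named here all but Ppp2r2b had also changed from time zero to 48 h in unconditioned medium. Atp12a and Thbd had been named for that change. Reg3b was at 31.0 and 69.9 in unconditioned and at 4718 and 4374 in conditioned medium, 6.43 ± 0.47 (adjusted p = 1.6e-06). Myh3 was at 3032 and 4382 and at 108 and 94.9, -5.35 ± 0.45 (adjusted p = 2.0e-05), and Myh2 at 1770.0 and 2910.5 and at 171 and 167, -3.92 ± 0.45 (adjusted p = 0.0013). Atp12a was at 489 and 366 in conditioned medium, -2.77 ± 0.41 (adjusted p = 0.010), a difference that did not pass without unconditioned 48 h replicate 3 (adjusted p = 0.055) or conditioned 48 h replicate 3 (0.24). The phosphatase subunit Ppp2r2b was at 87.6 and 131 and at 1636 and 1529.7, 3.70 ± 0.53 (adjusted p = 0.0035), and had been at 363, 91.2, 111 and 283 at time zero. Its difference from time zero to unconditioned 48 h was -0.74 ± 0.46 (adjusted p = 0.56), with overlapping groups. Camk2n1, an inhibitor of the kinase CaMKII, was at 16.2 and 26.0 and at 199 and 157, 2.93 ± 0.50 (adjusted p = 0.013), and Dhrs7c, a reductase of the sarcoplasmic reticulum, at 97.2 and 156 and at 14.1 and 4.78, -4.08 ± 0.56 (adjusted p = 0.0044). Camk2n1 did not pass without unconditioned 48 h replicate 2 (adjusted p = 0.068) or conditioned 48 h replicates 2 (0.24) or 3 (0.15), nor Dhrs7c without conditioned 48 h replicate 3 (0.12). From time zero to 48 h in unconditioned medium Camk2n1 changed by -2.05 ± 0.44 (adjusted p = 0.013) and Dhrs7c by -2.55 ± 0.49 (adjusted p = 0.0067), and without unconditioned 48 h replicate 2 neither passed (adjusted p = 0.11 and 0.066). Thbd, which rose from time zero, was at 1805 and 1711 in conditioned medium, 2.35 ± 0.35 (adjusted p = 0.0035), and did not pass without conditioned 48 h replicate 3 (0.067), with its probes averaged (1.25, 0.051) or with both designs in 1 fit (1.67, 0.27). With no filter on level Atp12a, Camk2n1, Dhrs7c, Myh2 and Ppp2r2b did not pass (adjusted p from 0.057 to 0.16). With no intensity trend Atp12a, Dhrs7c and Ppp2r2b did not (0.059 to 0.067), nor Dhrs7c with a pseudocount (-1.79, 0.25).

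No mitosis gene was among these calls. The list median in conditioned relative to unconditioned medium at 48 h was -0.37, and none of 54 passed, where 0.161% of all genes did. With so low a share, having no call cannot tell this list from others. Kif20a was at 1156 and 1772 in unconditioned and at 908 and 975 in conditioned medium, -0.78 ± 0.38 (adjusted p = 0.70). Ccnb1 was at 1454 and 1553 in conditioned medium, -0.73 ± 0.40 (adjusted p = 0.75). Cdkn2b was at 452 and 858 and at 919 and 878, 0.35 ± 0.76 (adjusted p = 0.91), and Id1 at 328 and 396 and at 444 and 477, 0.18 ± 0.40 (adjusted p = 0.87).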

How the data were processed

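RNA of rat cardiomyocyte cultures was hybridised, per the labels, to 1-colour arrays of 2 designs. The authors deposited linear intensity values, 1 per probe and array. Their scanner settings, background correction and normalization are not given in the sources used here. The members, gene lists and tests were chosen with earlier results of these data known.

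Each array of the larger design was scaled to a common median, values under 0.05 of it were set to that floor (4.78), and log2 was taken. Probes under the 30th percentile of mean level were left out, which kept 23694 of 33849. limma 3.58.1 (R 4.3.3; eBayes with an intensity trend) was fitted to all 12 arrays and 5 groups, with 7 residual and 10.45 prior degrees of freedom and Benjamini-Hochberg adjustment over all probes. A gene is its brightest probe among those assigned to 1 symbol (16753 probes had 1, 165 several and 16931 none). Genes were named if, among called genes without overlap, their change was one of the 12 largest up or 12 largest down, if they had 1 of the 3 smallest p in each direction of another comparison or of the 4 smallest in a list, and a few in any case (such as Myh7, Nppa, Col1a1, Ccnb1 and Mki67). The fit was run on simulated data with independent normal noise per probe. The simulation had no floor and no arrays that stand apart, so it does not test their effect. Array medians ran from 70.3 to 143.6 as deposited, and the number of arrays limits the precision. Alternatives were other scalings, filters, floors, variance models, probe rules, both designs together, and leaving out arrays. Figures used matplotlib 3.10.9 (Python 3.11.15). Promoters came from RefSeq (GRCr8). Conditioned medium at 24 h entered the fit and is not described.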

Additional observations from a re-analysis of the deposited data

Results flagged for a closer look

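At time zero 1 of the 4 arrays stood beyond Dixon's 95% critical distance from the other 3 in 3 of 106 genes looked at, where chance gives about 5%. The gap to the nearest array was 0.93 of the whole range for Nkx2-5 (replicate 5, at 309), 0.885 for Knstrn (replicate 3, at 103) and 0.868 for Inhba (replicate 6, at 442). With fewer than 4 arrays the other groups were not looked at in this way.

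The 2 media differed at 48 h in 8 of the genes named, by limma's adjusted p, where 16 of all 9953 genes did (0.161%). The naming rule took 3 genes in each direction from this same comparison, which largely fixes that count. Conditioned minus unconditioned, relative to the median, the differences were 6.43 for Reg3b, 3.70 for Ppp2r2b, 2.93 for Camk2n1 and 2.35 for Thbd. They were -5.35 for Myh3, -4.08 for Dhrs7c, -3.92 for Myh2 and -2.77 for Atp12a. Each rests on 2 arrays a group.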

How the results depend on the processing

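The count of 686 of 23694 probes from time zero to 48 h was 2353 with quantile normalization, 2993 with cyclic loess and 2107 with the 75th percentile. With probes averaged the unit was the gene, and 413 of 8538 passed. The probe count was 315 with no filter, 392 with array weights and 165 with only the compared arrays fitted. It was 1630 without the 3 arrays that stand apart, 2937 with that as a term, and 2113 with quantile normalization and without them, chosen after seeing the data. Leaving out single arrays gave 331 to 1248. Mitosis genes that rose, 36 of 54, were 15 with no filter, 19 with no trend, 18 with weights and 7 with only the compared arrays. With both designs 19 of 23 rose. Without single time zero arrays 26 to 41 of 54 rose, and far fewer without unconditioned 48 h replicate 3. From 24 h to 48 h none passed as reported, with 1234 probes at an unadjusted p under 0.05. That was 35 with quantile, 61 with loess, 4 with the 75th percentile, 127 with only the compared arrays, 3 with both designs, 66 without the 3 arrays, 21 with the term and 10 to 28 without single arrays. Between media the 35 probes were 171 with quantile, 341 with loess, 153 with the 75th percentile, 10 with no filter, 22 with no trend, 79 with weights, 96 with only the compared arrays, 294 without the 3 arrays, 185 with the term and 11 to 97 without single arrays. The cause of these moves was not tested. Uncalled values changed sign in 3 genes. Acta1 was -0.14 with quantile, -0.024 with loess, -0.24 with weights, -0.12 without the 3 arrays, -0.18 with quantile and without them, and -0.13 to 0.28 without single arrays. Atp2a2 was -0.043 (quantile), -0.077 (loess), -0.014 (75th percentile) and -0.17 (weights), -1.05 with probes averaged, -0.82 with both designs, -2.49 on the smaller one, and -0.30 to 0.35 without single arrays. Nppa was -0.046 with weights, -0.074 without the 3 arrays and -0.030 with quantile and without them. The called gene Thbd was -0.083 on the smaller design. Of the other values for named genes from time zero to 48 h, 1806 kept direction and side of the threshold. A further 246 lost the call and 113 gained it. Values of the smaller design alone, which had no test, were counted among the 1806 by direction only. No paired analysis was possible because the labels carry no replicate numbers. The number of arrays and the floor limit what dim genes can show.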

Other observations

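Further genes chosen after their values were seen also changed from time zero to 48 h in unconditioned medium. Fbxo32, which encodes the muscle ubiquitin ligase atrogin-1, gave 177, 124, 203 and 387 at time zero and 42.2 and 70.8 at 48 h (-1.90 ± 0.43, adjusted p = 0.019). Pik3ip1, an inhibitor of PI3 kinase, went from 572, 397, 221 and 309.7 to 82.9 and 67.4 (-2.24 ± 0.37, adjusted p = 0.0024), and Perm1, a muscle regulator of mitochondrial genes, from 627, 1034, 391 and 732 to 165 and 107 (-2.30 ± 0.37, adjusted p = 0.0019). Rragd, a GTPase of the lysosomal nutrient sensor, went from 501, 339, 331 and 381 to 98.3 and 138 (-1.71 ± 0.30, adjusted p = 0.0035). In these 4 genes both 48 h arrays were below all time zero arrays, and Fbxo32 did not pass without unconditioned 48 h replicate 2 (-1.52, adjusted p = 0.17).

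Ptgis, which makes prostacyclin from the product of Ptgs1, rose from 960.4, 586, 665 and 1422 to 3144 and 5294 (2.26 ± 0.37, adjusted p = 0.0022). Outside the mitosis list, Cep55, a scaffold of the midbody, rose from 447, 215, 272 and 406 to 1346 and 1735 (2.25 ± 0.32, adjusted p = 8.9e-04), and the spindle protein Tacc3 from 884, 572, 592 and 1014 to 1848 and 2726 (1.60 ± 0.32, adjusted p = 0.0082). Without unconditioned 48 h replicate 3 Ptgis (1.88, adjusted p = 0.051) and Tacc3 (1.32, 0.12) did not pass, and averaging its probes ended the call of Cep55 (1.91, adjusted p = 0.11).

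On the smaller design 70 of 4613 genes lay more than 3 log2 units lower at 48 h while changing by less than 1 on the larger design, against 10 that lay as far higher. In 52 of the 70 the lone unconditioned 48 h array was at the floor.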
